A study of Mus musculus with 12 samples.

Results

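The expression of 10 disease-associated microglia genes was measured by RNA-seq in mouse retinas injected with the glutamate receptor agonist NMDA or with PBS. The genes were *Trem2*, *Tyrobp*, *Clec7a*, *Itgax*, *Cd68*, *Cst7*, *Gpnmb*, *Lpl*, *Spp1* and *Lgals3*, taken by exact name from a table of 55487 genes, and all 10 passed the filter on low values among 16471 genes tested. The 12 libraries form 6 groups of 2. WT retinas came from C57BL/6J mice, sh*Pax6* retinas from WT mice infected with an AAV2.7m8 vector (pU6-shPax6-GFP) that expresses an shRNA against *Pax6* together with GFP, and JNK3 KO retinas from Jnk3-/- mice, which lack the neuronal stress kinase JNK3 (gene *Mapk10*) in every cell. Each kind of retina received an intravitreal injection of 1 µL of PBS or of 1 µL of 40 mM NMDA, which overactivates glutamate receptors and injures retinal ganglion cells (RGCs). The mice given the sh*Pax6* vector were 2 months old, an age for the Jnk3-/- mice is not given in the sources used here, and each extraction of poly(A) RNA pooled several retinas. Since none of the 12 libraries carries the shScramble control vector, infection and knockdown cannot be told apart. The study asked how PAX6 and JNK3 shape the transcriptional response to excitotoxic injury.

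Microglia are the resident macrophages of the retina. Around dying neurons, amyloid or myelin debris they lose part of their homeostatic program and switch on a set of genes known as the disease-associated microglia (DAM) signature. TREM2 is the lipid-sensing surface receptor on which the full signature depends, and it signals through the adaptor TYROBP (DAP12) and the kinase SYK. The other members encode surface receptors, lysosomal proteins, a lipase and secreted factors, and none of them belongs to microglia alone. *Tyrobp*, *Itgax* and *Clec7a* are also transcribed in neutrophils, monocytes or dendritic cells, *Lgals3* and *Cd68* in infiltrating macrophages, *Gpnmb* in pigment cells and *Spp1* in some RGCs.

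The libraries had the makeup of retina, with the summed level of 6 rod photoreceptor genes at 19900 to 34900 FPKM (fragment counts scaled to transcript length and sequencing depth). The 2 WT PBS libraries had 173 and 177 FPKM of *Pax6*, against 94.6 and 92.8 FPKM in sh*Pax6* PBS, 55.4 and 53.8 FPKM in WT NMDA and 67.5 and 58.7 FPKM in sh*Pax6* NMDA. *Pax6* was thus lower in sh*Pax6* than in WT under PBS, while the sh*Pax6* NMDA libraries lay above the WT NMDA libraries. Whether the shRNA caused the lower level was not tested. For *Mapk10* the WT PBS libraries had 42.8 and 50.7 FPKM, against 9.47 and 8.75 FPKM in JNK3 KO PBS, 8.98 and 6.00 FPKM in WT NMDA and 6.65 and 13.8 FPKM in JNK3 KO NMDA. In sh*Pax6* retinas *Mapk10* was 20.9 and 21.3 FPKM under PBS and 16.2 and 8.85 FPKM under NMDA. Homeostatic microglia markers were low throughout. *P2ry12*, a purinergic receptor of resting microglia, lay between 0.08 and 2.06 FPKM, and *Tmem119* between 0.28 and 4.56 FPKM.

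The promoters of 8 of the 10 genes were found in the RefSeq table (GRCm38.p6, 250 bases before to 50 after each start), which held no entry for *Tyrobp* or *Lpl*. They were searched on both strands for TGANTCA, a loose form of the AP-1 motif with any middle letter. The PU.1 motif GAGGAAGT and the E-box CACGTG were searched in the same way. These are motif types of stress-induced JUN and FOS dimers, of the myeloid factor PU.1 and of lysosomal TFE factors, respectively. TGANTCA reads the same on both strands. It occurred in 5 of the 8 genes (*Trem2*, *Cd68*, *Cst7*, *Gpnmb* and *Itgax*). The 8 genes have 10 promoter windows in the table, and 7.81% of all 32851 windows held TGANTCA. A share per gene was not computed. GAGGAAGT occurred in *Spp1*, against 3.20% of the windows, and CACGTG in 0 of the 8, against 7.15%. The middle letter of TGANTCA was C or G in *Cd68*, *Gpnmb* and *Itgax*, as in the strict AP-1 motif. It was A in *Trem2* and T in *Cst7*. All these matches are letters in a window and say nothing of binding. The sites are shown because JNK acts on JUN, with the motif in capitals and in the direction of transcription. The coordinates are chr17:48346362-48346428 (+) for *Trem2*, chr11:69666158-69666224 (-) for the nearer of 2 sites of *Cd68*, chr2:150570379-150570445 (+) for *Cst7*, chr6:49036496-49036562 (+) for *Gpnmb*, chr7:128129464-128129530 (+) for *Itgax* and chr5:104434968-104435035 (+) for *Spp1*.
Trem2: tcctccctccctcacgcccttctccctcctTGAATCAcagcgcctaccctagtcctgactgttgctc
Cd68: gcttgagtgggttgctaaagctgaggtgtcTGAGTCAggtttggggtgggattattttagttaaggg
Cst7: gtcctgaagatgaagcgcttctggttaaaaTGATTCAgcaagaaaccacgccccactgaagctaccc
Gpnmb: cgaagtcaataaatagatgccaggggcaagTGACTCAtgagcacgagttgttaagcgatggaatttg
Itgax: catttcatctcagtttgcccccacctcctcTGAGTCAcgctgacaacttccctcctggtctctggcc
Spp1: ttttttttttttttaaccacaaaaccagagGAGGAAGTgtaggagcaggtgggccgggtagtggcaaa
The motif began 9 bases before the transcription start in *Trem2*, 24 in *Cd68*, 6 in *Cst7* and 56 in *Itgax*, and 8 bases after it in *Gpnmb*, and the *Spp1* motif began 113 bases before its start. These starts are those of the RefSeq table. For *Cd68*, *Gpnmb*, *Itgax* and *Spp1* they differ from the starts in the gene coordinates given below, which are from GENCODE.

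**Figure D1:**
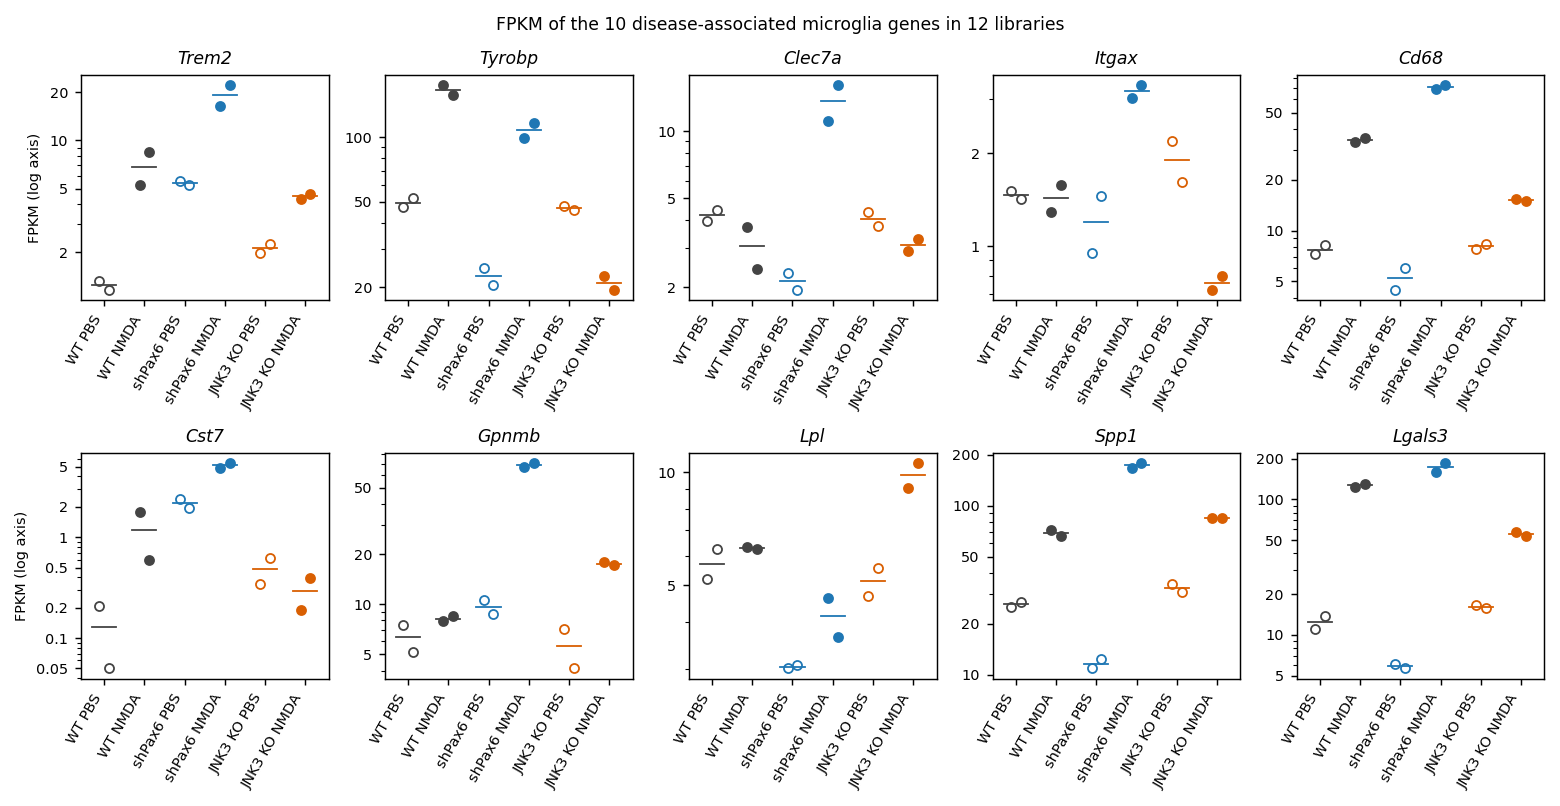
FPKM of each gene (log axis, a scale of its own per panel) in the 2 libraries of each group, with open circles for PBS, filled circles for NMDA and a line at the group mean. The sh*Pax6* NMDA libraries are the highest for 8 of the 10 genes, with *Tyrobp* highest in WT NMDA and *Lpl* in JNK3 KO NMDA.

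NMDA raised 6 of the 10 genes in WT, 8 in sh*Pax6* and 6 in JNK3 KO retinas. These were counted with limma on log2(FPKM + 0.1) at a Benjamini-Hochberg adjusted p under 0.05 over all 16471 genes, of which 26% were higher in WT, 19.1% in sh*Pax6* and 4.33% in JNK3 KO retinas. In WT, where 33.8% of all genes were lower, and in sh*Pax6*, where 11% were, 0 of the 10 were lower, and 2 were lower in JNK3 KO retinas, where 6.1% were. These shares of all genes also apply to the counts of the other gene lists after NMDA in this fit, but not to counts under another scaling. Among all genes called in WT, 43.5% were higher in this fit, 21.4% as TPM and 51.9% with a length trend removed. The 4 genes *Trem2*, *Cd68*, *Spp1* and *Lgals3* rose in all 3, which 0.984% of all genes did. The median log2 fold change of the 10 genes was 1.57 in WT, 2.43 in sh*Pax6* and 0.91 in JNK3 KO retinas, and that of all genes was -0.09, 0.10 and -0.01. In these bulk libraries more cells of a type and more RNA per cell cannot be told apart. The labels do not say whether the 2 libraries of a group came from separate animals, so that p-values measure the spread between these libraries only.

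The WT response depended on gene length. Genes with spliced transcripts under 1 kb had a median log2 fold change of 1.03 and those over 4 kb of -1.17, while in sh*Pax6* and JNK3 KO retinas the medians of the 4 length classes lay between -0.11 and 0.20. Of the members that rose in WT, all had mean spliced lengths of 582 (*Tyrobp*) to 1411 bases (*Spp1*), and the 4 that did not were *Clec7a* (1885 bases), *Gpnmb* (3324), *Lpl* (3761) and *Itgax* (3770). With each library's length trend removed, the WT responses of *Trem2*, *Tyrobp*, *Cd68*, *Spp1* and *Lgals3* were still called at 1.53, 0.61, 1.32, 0.81 and 2.52, that of *Cst7* was not (1.44, adjusted p = 0.073 by limma), and *Gpnmb* and *Lpl* were called higher at 0.93 and 0.85. As TPM, where the median gene fell by 0.66 in WT, the 6 calls held at 0.82 (*Spp1*) to 2.79 (*Lgals3*). Whether the length trend comes from the RNA or from the libraries was not tested.

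**Figure D2:**
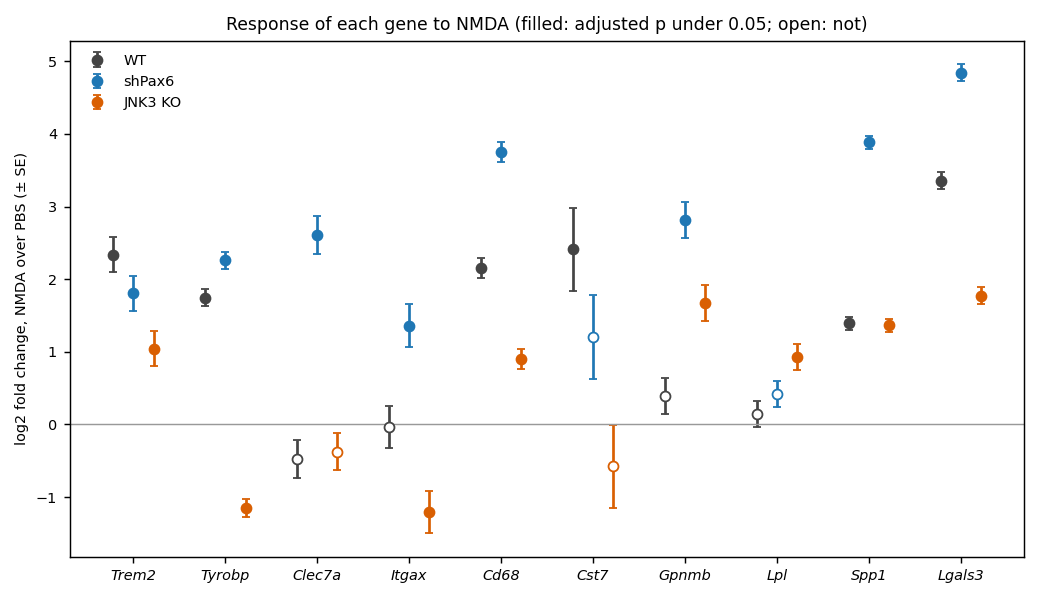
Log2 fold change of NMDA over PBS for each gene in WT, sh*Pax6* and JNK3 KO retinas, with standard errors from limma. Filled points passed an adjusted p of 0.05. *Lgals3* has the largest fitted rise in all 3, within the errors of *Gpnmb* in JNK3 KO retinas. In JNK3 KO retinas *Tyrobp* and *Itgax* (filled) and *Cst7* and *Clec7a* (open) lie below 0.

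Within the TREM2 receptor complex, receptor and adaptor both rose in WT and sh*Pax6* retinas and went in opposite directions in JNK3 KO retinas. The level of *Trem2* (chr17:48346401-48354147, GRCm38) went from 1.32 and 1.16 FPKM under PBS to 5.25 and 8.44 FPKM under NMDA in WT, and from 5.55 and 5.26 FPKM to 16.4 and 22.3 FPKM in sh*Pax6* retinas. The JNK3 KO libraries had 1.99 and 2.25 FPKM under PBS and 4.29 and 4.65 FPKM under NMDA. Both NMDA libraries lay above both PBS libraries in each genotype, and the uninjured sh*Pax6* retinas overlapped the injured WT retinas. The NMDA response was 5.05-fold in WT (log2 fold change 2.34 ± 0.24 SE, adjusted p = 2.97e-05 by limma), 3.50-fold in sh*Pax6* (1.81 ± 0.24, adjusted p = 0.00059) and 2.06-fold in JNK3 KO retinas (1.04 ± 0.24, adjusted p = 0.027). The JNK3 KO call was lost when either WT PBS library or any of the 4 JNK3 KO libraries was left out, at values of 0.96 to 1.13, and when the spread was taken from the JNK3 KO groups alone.

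*Tyrobp* (chr7:30413760-30417585) was 47.4 and 51.9 FPKM in WT PBS and 176 and 158 FPKM in WT NMDA. It was 24.5 and 20.5 FPKM in sh*Pax6* PBS and 99.4 and 117 FPKM in sh*Pax6* NMDA. The direction was opposite in JNK3 KO retinas, from 47.6 and 45.7 FPKM under PBS to 22.6 and 19.4 FPKM under NMDA. The groups did not overlap in any of the 3 comparisons. The response was 3.35-fold in WT (1.75 ± 0.12, adjusted p = 2.32e-06 by limma), 4.79-fold in sh*Pax6* (2.26 ± 0.12, adjusted p = 2.9e-06) and 0.45-fold in JNK3 KO retinas (-1.15 ± 0.12, adjusted p = 0.00066). Every alternative setting kept these 3 calls.

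The ratio of *Tyrobp* to *Trem2*, both per length, was 35.9 and 44.7 in WT PBS, 33.4 and 18.7 in WT NMDA and 23.9 and 20.3 in JNK3 KO PBS. It was lower in both sh*Pax6* groups, with 4.42 and 3.89 under PBS and 6.04 and 5.25 under NMDA, and in JNK3 KO NMDA, with 5.26 and 4.17. The 12 libraries therefore fell into 6 with a ratio of 18.7 or more and 6 with a ratio of 6.04 or less. Neutrophil genes, of which *S100a8* and *S100a9* encode the abundant cytosolic calprotectin, gave the same division of the groups. Within WT, however, their summed level was higher after NMDA while the ratio was lower. The summed level of 11 neutrophil genes was 230 to 253 FPKM in WT PBS, 1978 to 2019 in WT NMDA and 171 to 184 in JNK3 KO PBS, and 8.39 to 12.4 in sh*Pax6* PBS, 71.1 to 82.3 in sh*Pax6* NMDA and 17.6 to 18.3 in JNK3 KO NMDA. *Ly6g* and *Ngp* were at 0 in both libraries of each of the last 3 groups, and *Ngp* and *Camp* were also at 0 in both JNK3 KO PBS libraries. The share of *Tyrobp* that came from neutrophils was not tested. By contrast, the ratio of *Tyrobp* to *Fcer1g*, the other common myeloid adaptor, ranged from 1.46 to 2.78 over the 12 libraries.

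**Figure D3:**
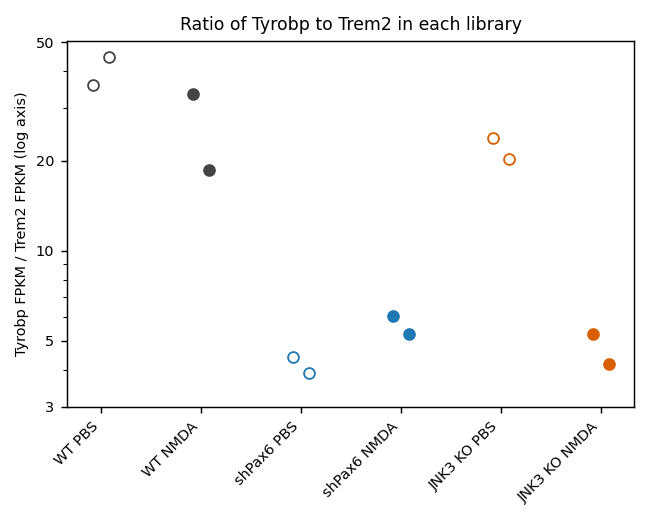
Ratio of *Tyrobp* FPKM to *Trem2* FPKM in each library (log axis), with open circles for PBS and filled circles for NMDA. The ratio is 18.7 or more in WT and JNK3 KO PBS libraries and 6.04 or less in both sh*Pax6* groups and JNK3 KO NMDA.

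Beside the complex, of 13 genes of TREM2 signaling and shedding, 3 were higher and 1 lower after NMDA in WT (2 and 4 as TPM), 8 were higher and 0 lower in sh*Pax6*, and 0 were higher and 5 lower in JNK3 KO retinas. *Syk*, the kinase recruited by TYROBP, was 2.40 and 2.13 FPKM in WT PBS and 2.21 and 2.82 FPKM in WT NMDA, against 0.34 and 0.81 FPKM in sh*Pax6* PBS and 2.01 and 2.81 FPKM in sh*Pax6* NMDA. In JNK3 KO retinas *Syk* fell from 2.29 and 2.13 FPKM to 0.59 and 0.59 FPKM (log2 fold change -1.74 ± 0.37, adjusted p = 0.018 by limma). *Plcg2*, which encodes the phospholipase downstream of SYK, changed by 1.497 ± 0.44 in sh*Pax6* (adjusted p = 0.031) and did not pass in WT (-0.68) or JNK3 KO retinas (-0.85). *Inpp5d*, which encodes the inhibitory phosphatase SHIP1, was higher in sh*Pax6* at 1.91 ± 0.58 (adjusted p = 0.034), with 15.1 and 3.91 FPKM in the 2 NMDA libraries.

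The surface receptor genes *Clec7a* and *Itgax* rose after NMDA in sh*Pax6* retinas and in neither of the other genotypes. *Clec7a* (chr6:129461591-129472779), the β-glucan receptor Dectin-1, was 3.97 and 4.44 FPKM in WT PBS, 3.73 and 2.40 FPKM in WT NMDA, 2.31 and 1.94 FPKM in sh*Pax6* PBS and 11.1 and 16.1 FPKM in sh*Pax6* NMDA. In JNK3 KO retinas it was 4.35 and 3.75 FPKM under PBS and 2.89 and 3.30 FPKM under NMDA. The NMDA libraries were higher only in sh*Pax6*, 6.09-fold (2.61 ± 0.26, adjusted p = 9.87e-05 by limma). In WT the difference was -0.47 ± 0.26 (adjusted p = 0.14), which passed as a fall as TPM (-1.04), with the length trend removed (-0.69) and without WT NMDA replicate 1 (-0.78).

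*Itgax* (chr7:128129547-128150657) encodes the integrin CD11c. It was 1.51 and 1.42 FPKM in WT PBS, 1.29 and 1.58 FPKM in WT NMDA, 0.95 and 1.45 FPKM in sh*Pax6* PBS and 3.02 and 3.34 FPKM in sh*Pax6* NMDA. The JNK3 KO libraries held 2.19 and 1.61 FPKM under PBS and 0.72 and 0.80 FPKM under NMDA. The 2 WT groups overlapped, while *Itgax* rose 2.57-fold in sh*Pax6* (1.36 ± 0.29, adjusted p = 0.0076 by limma) and fell to 0.43-fold in JNK3 KO retinas (-1.20 ± 0.29, adjusted p = 0.033). The fall was lost without either WT PBS library or any 1 of the 4 JNK3 KO libraries (-1.42 to -0.99), with no filter and with the spread of the JNK3 KO groups alone, and the rise was lost with the spread of the sh*Pax6* groups alone. Dendritic cells also carry CD11c, and the summed level of 6 dendritic cell genes moved with *Itgax* in these 2 genotypes, from between 2.50 and 2.54 FPKM to 5.08 FPKM in sh*Pax6* and from between 2.75 and 3.45 FPKM to between 1.73 and 1.97 FPKM in JNK3 KO retinas. In WT the sum went from between 3.75 and 3.98 FPKM to between 1.11 and 1.53 FPKM. Of the 6 genes, 3 passed the filter on low values. After NMDA 1 of these was called higher in sh*Pax6*, 2 lower in WT and 0 either way in JNK3 KO retinas. The part of dendritic cells in the *Itgax* values was not tested. In every group at least 1 of *Xcr1*, *Clec9a* and *Cd209a* was at 0 in both libraries.

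The lysosomal and endosomal genes rose to different degrees. *Cd68* (chr11:69664213-69666153), a lysosomal glycoprotein of phagocytes, was 7.25 and 8.17 FPKM in WT PBS and 33.6 and 35.4 FPKM in WT NMDA. It was 4.44 and 5.99 FPKM in sh*Pax6* PBS and 68.9 and 73.2 FPKM in sh*Pax6* NMDA, and 7.78 and 8.37 FPKM in JNK3 KO PBS against 15.4 and 14.9 FPKM in JNK3 KO NMDA. No groups overlapped between PBS and NMDA. The response was 4.43-fold in WT (2.15 ± 0.14, adjusted p = 1.51e-06 by limma), 13.5-fold in sh*Pax6* (3.76 ± 0.14, adjusted p = 4.39e-07) and 1.87-fold in JNK3 KO retinas (0.90 ± 0.14, adjusted p = 0.0045).

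*Gpnmb* (chr6:49036546-49070929), a transmembrane glycoprotein of stressed lysosomes, rose in sh*Pax6* and JNK3 KO retinas. It was 7.46 and 5.2 FPKM in WT PBS and 7.88 and 8.50 FPKM in WT NMDA, 10.6 and 8.73 FPKM in sh*Pax6* PBS and 66.7 and 70.4 FPKM in sh*Pax6* NMDA, and 7.15 and 4.12 FPKM in JNK3 KO PBS and 17.9 and 17.1 FPKM in JNK3 KO NMDA. Its rise was 7.05-fold in sh*Pax6* (2.82 ± 0.25, adjusted p = 4.91e-05 by limma) and 3.18-fold in JNK3 KO retinas (1.67 ± 0.25, adjusted p = 0.0038). The WT value was 0.39 ± 0.25 (adjusted p = 0.21), and the JNK3 KO call was lost with the spread of those groups alone. *Gpnmb* is also a pigment cell gene. The summed level of 8 pigment epithelium and melanocyte genes went from between 42.8 and 46.6 FPKM to between 7.94 and 12.1 FPKM after NMDA in sh*Pax6*, from between 30.2 and 33.1 FPKM to 38.6 FPKM in both JNK3 KO libraries, and from between 40.0 and 45.8 FPKM to between 61.9 and 63.4 FPKM in WT. The rise of the sum in WT did not hold for the list as a whole. The mean log2 level of these 8 genes fell in WT, from between 0.64 and 0.79 to between 0.28 and 0.34. Of the 5 genes tested, 1 was called higher and 1 lower in WT, with a median of -0.46. The mean log2 level also fell in sh*Pax6*, from between 0.42 and 0.71 to between -1.05 and -0.53. In JNK3 KO retinas it overlapped between PBS (0.32 to 0.51) and NMDA (0.38 to 0.52). The part of pigment cells in the *Gpnmb* values was not tested.

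*Cst7* (chr2:150570415-150578944), which encodes the cathepsin inhibitor cystatin F, had the largest standard error of the 10 genes. It was 0.21 and 0.05 FPKM in WT PBS, 1.78 and 0.60 FPKM in WT NMDA, 2.41 and 1.97 FPKM in sh*Pax6* PBS and 4.88 and 5.43 FPKM in sh*Pax6* NMDA. In JNK3 KO retinas it was 0.34 and 0.62 FPKM under PBS and 0.19 and 0.39 FPKM under NMDA, which overlap. The WT rise was 2.41 ± 0.58 on the log2 scale (adjusted p = 0.0054 by limma), was 1.70 when WT NMDA replicate 1 was left out and 3.12 when replicate 2 was, and was 0.90 with a pseudocount of 1. It was not called with the spread of the WT groups alone (adjusted p = 0.06). In sh*Pax6* the value of 1.20 ± 0.58 did not pass (adjusted p = 0.15), although both NMDA libraries lay above both PBS libraries, and it passed with a pseudocount of 1 (0.95).

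Among the secreted products, *Lgals3* (chr14:47367751-47386160), galectin-3, a damage-sensing lectin and TREM2 ligand, had the largest fitted response of the 10 in each genotype, although in JNK3 KO retinas that of *Gpnmb* lay within the errors and reached 2.06 when JNK3 KO PBS replicate 1 was left out. It was 11.1 and 13.8 FPKM in WT PBS and 124 and 130 FPKM in WT NMDA, 6.12 and 5.67 FPKM in sh*Pax6* PBS and 160 and 185 FPKM in sh*Pax6* NMDA, and 16.7 and 15.7 FPKM in JNK3 KO PBS and 57.9 and 53.3 FPKM in JNK3 KO NMDA. The 6 groups did not overlap, and sh*Pax6* retinas were the lowest under PBS and the highest under NMDA. It rose 10.2-fold in WT (3.357 ± 0.12, adjusted p = 5.67e-08 by limma), 28.7-fold in sh*Pax6* (4.84 ± 0.12, adjusted p = 3.87e-08) and 3.42-fold in JNK3 KO retinas (1.77 ± 0.12, adjusted p = 5.44e-05). Every alternative setting kept these calls.

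*Spp1* (chr5:104435118-104441050), osteopontin, was 25.1 and 27.0 FPKM in WT PBS and 71.3 and 66.1 FPKM in WT NMDA, 10.9 and 12.4 FPKM in sh*Pax6* PBS and 168 and 178 FPKM in sh*Pax6* NMDA, and 34.6 and 30.8 FPKM in JNK3 KO PBS and 84.4 and 84.4 FPKM in JNK3 KO NMDA. As for *Lgals3*, no groups overlapped and sh*Pax6* retinas held both the lowest and the highest values. Its rise was 2.63-fold in WT (1.40 ± 0.09, adjusted p = 1.36e-06 by limma), 14.8-fold in sh*Pax6* (3.89 ± 0.09, adjusted p = 3.53e-08) and 2.58-fold in JNK3 KO retinas (1.37 ± 0.09, adjusted p = 4.9e-05). RGCs can also express *Spp1*. The summed level of 10 RGC genes went from 567 to 588 FPKM in WT PBS to between 317 and 336 FPKM in WT NMDA, from 169 FPKM in sh*Pax6* PBS to between 49.7 and 55.3 FPKM in sh*Pax6* NMDA, and from 539 to 582 FPKM in JNK3 KO PBS to between 140 and 141 FPKM in JNK3 KO NMDA. The part of RGCs in the *Spp1* values was not tested.

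*Lpl* (chr8:68880491-68907448), lipoprotein lipase, rose in JNK3 KO retinas and did not pass in WT (0.14 ± 0.18) or sh*Pax6* (0.42 ± 0.18). It was 4.69 and 5.56 FPKM in JNK3 KO PBS and 9.08 and 10.6 FPKM in JNK3 KO NMDA (1.90-fold, 0.93 ± 0.18, adjusted p = 0.012 by limma). In WT it was 5.19 and 6.23 FPKM under PBS and 6.32 and 6.24 FPKM under NMDA, while sh*Pax6* retinas had 3.01 and 3.07 FPKM under PBS and 4.62 and 3.65 FPKM under NMDA. The JNK3 KO call was lost without JNK3 KO PBS replicate 1 or either JNK3 KO NMDA library (0.81 to 1.05 over all libraries left out) and with the spread of those groups alone.

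The responses themselves were then compared. The NMDA response was smaller in WT than in sh*Pax6* for 7 of the 10 genes, where 31.4% of all genes were lower in this difference, and 0 were larger. The differences in log2 fold change were -3.08 ± 0.36 for *Clec7a*, -2.49 ± 0.12 for *Spp1*, -2.43 ± 0.35 for *Gpnmb*, -1.61 ± 0.20 for *Cd68*, -1.49 ± 0.16 for *Lgals3*, -1.39 ± 0.42 for *Itgax* and -0.52 ± 0.17 for *Tyrobp*, with adjusted p from 1.87e-06 to 0.032 by limma. The *Tyrobp* difference was the least stable. It was lost under 11 of the alternatives, including those without WT PBS replicate 1 or 2, WT NMDA replicate 2, sh*Pax6* PBS replicate 2, sh*Pax6* NMDA replicate 2 or either JNK3 KO PBS library (-0.65 to -0.39). The *Itgax* difference was lost with the length trend removed (-0.63), by quantile normalization (-0.73) and without WT PBS or WT NMDA replicate 1 (-1.68 to -1.11 over all libraries left out). *Trem2*, *Cst7* and *Lpl* differed by 0.53 ± 0.34, 1.21 ± 0.82 and -0.28 ± 0.25 and did not pass. *Trem2* passed by quantile normalization (1.09) and without WT NMDA replicate 1 (0.87), and *Lpl* passed as TPM (-0.80).

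Against JNK3 KO retinas, the WT response was larger for 6 genes and smaller for 2, where 23.5% of all genes were higher and 27.9% lower. It was larger by 2.99 ± 0.82 for *Cst7*, 2.90 ± 0.17 for *Tyrobp*, 1.59 ± 0.16 for *Lgals3*, 1.29 ± 0.34 for *Trem2*, 1.25 ± 0.20 for *Cd68* and 1.17 ± 0.42 for *Itgax*. It was smaller for *Gpnmb* (-1.28 ± 0.35) and *Lpl* (-0.79 ± 0.25), and for *Spp1* the difference was 0.03 ± 0.12 (adjusted p = 0.88 by limma). With the length trend removed the values were 0.29 for *Cd68*, 0.36 for *Trem2*, 1.89 for *Cst7*, -0.69 for *Gpnmb* and -0.01 for *Lpl*, none of them called. *Tyrobp* (1.61), *Lgals3* (0.62) and *Itgax* (1.95) were then still called, and *Spp1* became lower in WT (-0.67). As TPM the differences of *Trem2* (0.73) and *Itgax* (0.64) were lost, as was that of *Lpl* by quantile normalization (-0.40). The *Itgax* call was also lost with a pseudocount of 1, with no filter, by 75th-percentile scaling and with a replicate block. The *Cst7* value was 2.28 without WT NMDA replicate 1 and 3.70 without replicate 2. Leaving out 1 library ended the calls of *Itgax* (6 of the 12 libraries: both WT PBS, WT NMDA replicate 2, JNK3 KO PBS replicate 1 and both JNK3 KO NMDA libraries, 0.96 to 1.38), *Lpl* (WT PBS replicate 2, both WT NMDA libraries, JNK3 KO PBS replicate 1 and JNK3 KO NMDA replicate 2, -0.92 to -0.66), *Gpnmb* (WT PBS replicate 1, -1.03) and *Cst7* (JNK3 KO NMDA replicate 1, 2.61).

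The sh*Pax6* response exceeded the JNK3 KO response for 6 genes, where 12.1% of all genes were higher. The differences were 3.41 ± 0.17 for *Tyrobp*, 3.07 ± 0.16 for *Lgals3*, 2.98 ± 0.36 for *Clec7a*, 2.86 ± 0.20 for *Cd68*, 2.56 ± 0.42 for *Itgax* and 2.52 ± 0.12 for *Spp1*, with adjusted p of 0.0037 or less by limma, and these 6 calls held under every alternative. *Gpnmb* differed by 1.15 ± 0.35 (adjusted p = 0.053) and passed under 4 of the other adjusted settings, with values up to 1.54 without JNK3 KO PBS replicate 2.

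Under PBS, the sh*Pax6* retinas already differed from WT. *Trem2* was 4.11-fold higher (2.04 ± 0.24, adjusted p = 0.00064 by limma) and *Cst7* 10.6-fold higher (3.40 ± 0.58, adjusted p = 0.0042), 2 of 10 genes where 5.36% of all genes were higher. The levels of 6 were lower, where 11.2% of all genes were. These were *Spp1* (-1.16 ± 0.09), *Tyrobp* (-1.14 ± 0.12), *Lgals3* (-1.05 ± 0.12), *Clec7a* (-0.96 ± 0.26), *Lpl* (-0.88 ± 0.18) and *Cd68* (-0.57 ± 0.14). *Clec7a* lost its call without any 1 of 8 libraries, those of WT PBS, sh*Pax6* PBS and JNK3 KO (-1.08 to -0.84), *Cd68* without either WT PBS library or sh*Pax6* PBS replicate 1 (-0.78 to -0.36) and *Lpl* without WT PBS replicate 2 (-0.75). With the spread of these groups alone, 5 of the 8 calls were lost, those of *Cst7*, *Lgals3*, *Clec7a*, *Lpl* and *Cd68*. *Apoe*, a lipid carrier that is induced with *Trem2* in DAM and is also abundant in Müller glia, was 219 and 226 FPKM in WT PBS and 980 and 916 FPKM in sh*Pax6* PBS (2.09 ± 0.06, adjusted p = 5.49e-07). The general myeloid genes did not move one way, with 5 of 12 higher and 4 lower, and 7 of 10 neutrophil and 5 of 7 infiltrating monocyte genes tested were lower. In the same comparison 6 of 10 RGC genes were lower (median log2 difference -1.66), 6 of 6 rod genes were higher, and 3 of 7 Müller glia genes were higher and 3 lower. *Spp1* was thus lower beside lower RGC genes, and their part in its value was not tested.

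Between JNK3 KO and WT retinas under PBS 0 of the 10 genes passed the adjusted p of limma's test, which 1.51% of all genes did. At an unadjusted p under 0.05 there were 4, namely *Trem2* (0.73 ± 0.24), *Cst7* (1.38 ± 0.58), *Spp1* (0.33 ± 0.09) and *Lgals3* (0.39 ± 0.12), with 15.1% of all genes, and 1 with an added fold above 2 (*Cst7*).

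Other DAM genes were read from a list of 22. In WT 12 were higher and 3 lower after NMDA, in sh*Pax6* 20 were higher and 0 lower, and in JNK3 KO retinas 2 were higher and 5 lower. *Apoe* rose to 396 and 367 FPKM in WT NMDA (0.77 ± 0.06) and to 1930 and 2084 FPKM in sh*Pax6* NMDA (1.08 ± 0.06), and was 278 and 255 FPKM in JNK3 KO PBS and 303 and 299 FPKM in JNK3 KO NMDA (0.18 ± 0.06, adjusted p = 0.115 by limma). The WT rise of *Apoe* turned into a fall with the length trend removed (-0.20, adjusted p = 0.0084), and as TPM 10 of the 22 genes were higher and 9 lower in WT. *Axl*, a receptor for apoptotic cells, was 19.2 and 22.6 FPKM in WT PBS, 14.7 and 17.7 FPKM in WT NMDA, 10.4 and 10.6 FPKM in sh*Pax6* PBS and 32.9 and 29.6 FPKM in sh*Pax6* NMDA. *Cd9*, a tetraspanin, passed in sh*Pax6* (0.49 ± 0.07) and was 0.17 in WT, where it was lower as TPM (-0.41), and -0.05 in JNK3 KO retinas.

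**Figure D4:**
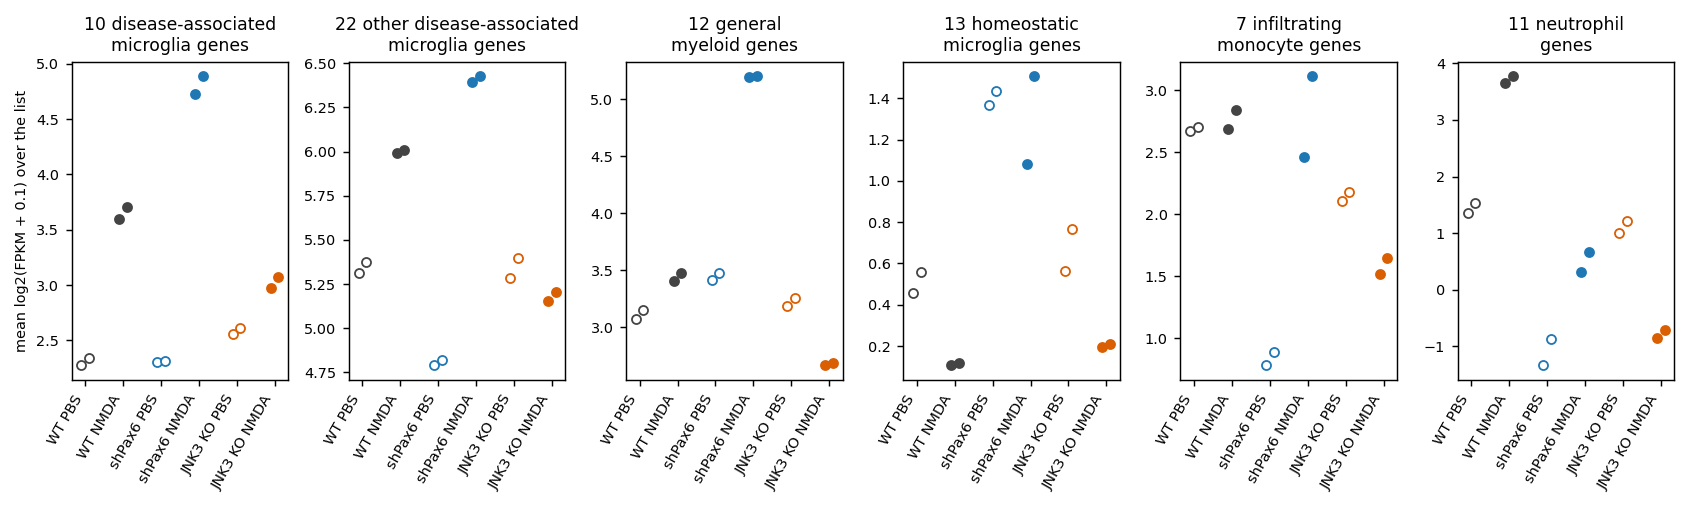
Mean log2(FPKM + 0.1) over 6 gene lists in the 2 libraries of each group (the lower library left, the higher right), with open circles for PBS, filled circles for NMDA and a vertical axis of its own per panel. The mean over the 10 DAM genes is higher after NMDA in all 3 genotypes, although *Tyrobp* and *Itgax* fell in JNK3 KO retinas. The means of all the other lists shown, that of the 22 other DAM genes among them, are lower in JNK3 KO NMDA than in JNK3 KO PBS.

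The general myeloid list (12 genes such as *Itgam*, *Ptprc* and *Csf1r*, which mark microglia and other leukocytes alike) had 6 genes higher and 2 lower after NMDA in WT, 11 higher and 0 lower in sh*Pax6*, and 0 higher and 4 lower in JNK3 KO retinas. *Itgam*, the integrin CD11b, was 8.52 and 8.90 FPKM in WT PBS and 4.23 and 3.20 FPKM in WT NMDA, rose from 3.50 and 4.07 FPKM to 10.3 and 9.06 FPKM in sh*Pax6*, and fell from 6.97 and 6.33 FPKM to 2.37 and 2.39 FPKM in JNK3 KO retinas. *Ptprc*, the leukocyte antigen CD45, had the same 3 directions (-1.46, 2.10 and -1.59), each called. With the length trend removed the WT falls of *Itgam* (-0.25) and *Ptprc* (-0.48) were not called, and the WT counts of this list were 1 higher and 1 lower, and 4 higher and 5 lower as TPM. Homeostatic microglia genes had 2 higher and 4 lower of 11 tested in WT, 3 higher and 0 lower in sh*Pax6* and 1 higher and 2 lower in JNK3 KO retinas, and *Tmem119* was lower in WT (-1.44 ± 0.32) and JNK3 KO retinas (-1.35 ± 0.32) and was 0.28 ± 0.32 in sh*Pax6*. Infiltrating monocyte genes had 1 of 7 higher and 3 lower in WT, 6 higher and 0 lower in sh*Pax6* and 1 higher and 4 lower in JNK3 KO retinas. Among border macrophage genes 3 of 5 were higher in WT, 4 in sh*Pax6* and 0 in JNK3 KO retinas, with *Mrc1* at 1.70 and 2.47 FPKM in sh*Pax6* NMDA and at 0.23 FPKM or less elsewhere, and *Cd163* at 0.04 FPKM or less throughout. Of 10 neutrophil genes tested, 6 were higher in WT, 6 in sh*Pax6* and 0 in JNK3 KO retinas, where 5 were lower. Of 3 dendritic cell genes, 2 were lower in WT and 1 was higher in sh*Pax6*. The part of these cells in the members' values was not tested.

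Among neural and epithelial lists, 8 of 10 RGC genes were lower after NMDA in WT, 7 in sh*Pax6* and 6 in JNK3 KO retinas, with 0 higher. Of 7 Müller glia genes, 2 were higher and 5 lower in WT, 4 higher and 1 lower in sh*Pax6*, and 3 higher and 2 lower in JNK3 KO retinas. Of 6 rod genes, 3 were higher and 1 lower in WT (0 and 4 as TPM), 6 were lower in sh*Pax6* and 4 in JNK3 KO retinas. Of 5 pigment cell genes, 1 was higher and 1 lower in WT, 4 were lower in sh*Pax6* and 0 passed in JNK3 KO retinas.

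The 10 genes were also fitted relative to the mean log2 level of the 12 general myeloid genes in the same library. In WT 6 were then higher (*Lgals3*, *Cst7*, *Trem2*, *Cd68*, *Tyrobp* and *Spp1*, 1.07 to 3.03), where 18.5% of all genes were, and *Clec7a* was lower (-0.80), where 43.2% were. The *Cst7* call (2.09) was lost with a pseudocount of 1 (0.57), with the length trend removed (1.45), without WT PBS replicate 2 (1.52) and without WT NMDA replicate 1 (1.41). The *Clec7a* call was lost under 6 alternatives, among them those without either WT PBS library or WT NMDA replicate 2 (-0.84, -0.76 and -0.53). In sh*Pax6*, 6 were higher, where 2.17% of all genes were, namely *Lgals3* (3.09), *Spp1* (2.13), *Cd68* (2.00), *Gpnmb* (1.06), *Clec7a* (0.85) and *Tyrobp* (0.50), while *Trem2* was at 0.05 ± 0.26 and *Lpl* was lower (-1.34), where 82.1% were. The *Clec7a* call was lost without sh*Pax6* NMDA replicate 2 (0.59) and with the spread of the sh*Pax6* groups alone. In JNK3 KO retinas, 6 were higher, where 48.4% of all genes were, and *Tyrobp* was lower (-0.61 ± 0.11), where 1.71% were.

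Across the 12 libraries the 10 genes were not 1 block. Over their 45 pairs the median Pearson correlation of log2 values was 0.51, from -0.62 to 0.96, with 5 pairs above 0.8 and 6 below 0. The closest were *Cd68* with *Lgals3* (0.96), *Spp1* with *Lgals3* (0.95) and *Cd68* with *Spp1* (0.92), and next came *Trem2* with *Cst7* (0.84) and with *Gpnmb* (0.83). Among the genes most like the mean standardized level of the members over the 12 libraries were *Lamp1* (r = 0.99), *Pisd* (0.98), *Shmt2* (0.98), *Maff* (0.975), *Anxa5* (0.96), *Rnf213* (0.96) and *Hmox1* (0.96). *Lamp1* encodes a lysosomal membrane protein, with mean levels of 118, 139, 115, 158, 120 and 128 FPKM in WT PBS, WT NMDA, sh*Pax6* PBS, sh*Pax6* NMDA, JNK3 KO PBS and JNK3 KO NMDA. *Hmox1*, heme oxygenase 1, spanned a wider range, with means of 10.6, 43.3, 6.79, 115, 16.1 and 36.9 FPKM in the same order. These correlations are descriptions over points that share groups.

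The transcript table added little resolution. *Spp1*-201 held 91.5% to 100% of the FPKM of *Spp1* in every library and *Cst7* had 1 transcript. The assignment between near-identical transcripts was unstable. *Tyrobp*-201 held 100% of *Tyrobp* in sh*Pax6* PBS replicate 1 and 0% in replicate 2, with *Tyrobp*-202 taking the rest, and *Clec7a*-201 ranged from 0% to 81.6% and *Clec7a*-204 from 0% to 89.1%. A single transcript ranged from 9.3% to 83.1% of *Lgals3*. No isoform change was therefore tested.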

How the data were processed

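The authors aligned paired reads to GRCm38.p6 with STAR 2.7.1a and estimated abundances with RSEM 1.3.3, per the labels, and deposited tables of FPKM for genes and transcripts. FPKM are not counts, so that the depth behind each value is unknown. Here log2(FPKM + 0.1) of the 16471 genes whose mean exceeded 1 FPKM in any of the 6 groups was fitted as 6 group means with limma 3.58.1 in R 4.3.3 (eBayes with an intensity trend), and p-values were adjusted over all genes by the Benjamini-Hochberg method. The count model used by the study could not be fitted to FPKM. Fold changes are on this log2 scale and understate those of low genes. Lengths and positions were taken from GENCODE M21, which matched 55141 of 55487 genes (99.38%). The 10 genes and the 12 lists beside them were chosen with earlier results of these data known. Genes named besides members are the first 3 of a list or among the 8 most alike, of which 1 is not reported here, and other list genes are named as markers at 0 or as further examples chosen after their values were seen. Replicate numbers did not pair the libraries, with correlations of deviations from -0.10 to 0.09 over 15 pairs of groups.

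The fit was tested on simulated data. Fold changes were recovered without bias and no gene was called in a comparison without change, but many changed genes were missed, more of the smaller than of the larger changes, and the share of false calls among all calls was above the nominal rate. The criterion for passing this test was revised after its first run, which had required more changed genes to be found. An adjusted p close to the threshold is therefore weak evidence, and a missed call is no sign that a gene did not change.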

Additional observations from a re-analysis of the deposited data

Results flagged for a closer look

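The NMDA responses of all 10 genes differed in at least 1 comparison between genotypes, by a test of the difference itself (limma, adjusted p under 0.05), and these 21 differences are flagged for that reason. They are not independent, since each response enters 2 of the comparisons. Of all 16471 genes tested, 3007 were higher and 5172 lower in WT minus sh*Pax6*. In WT minus JNK3 KO 3875 were higher and 4597 lower, and in sh*Pax6* minus JNK3 KO 1987 were higher and 926 lower. The share of all genes that differed in at least 1 comparison was not counted, so the count of 10 does not set these genes apart. Between WT and sh*Pax6* retinas the WT response was smaller for *Clec7a* (-3.08), *Spp1* (-2.49), *Gpnmb* (-2.43), *Cd68* (-1.61), *Lgals3* (-1.49), *Itgax* (-1.39) and *Tyrobp* (-0.52) on the log2 scale. Between WT and JNK3 KO retinas it was larger for *Cst7* (2.99), *Tyrobp* (2.90), *Lgals3* (1.59), *Trem2* (1.29), *Cd68* (1.25) and *Itgax* (1.17), and smaller for *Gpnmb* (-1.28) and *Lpl* (-0.79). The sh*Pax6* response was larger than the JNK3 KO response for *Tyrobp* (3.41), *Lgals3* (3.07), *Clec7a* (2.98), *Cd68* (2.86), *Itgax* (2.56) and *Spp1* (2.52). *Tyrobp* and *Itgax* moved in opposite directions in sh*Pax6* and JNK3 KO retinas.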

How the results depend on the processing

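The log2 values of the members gave 2640 alternative values, of which 2473 kept direction and call, 105 lost the call, 22 gained it and 40 changed sign, and the cause was not tested. None of the values that changed sign had been called, though *Spp1* in WT minus JNK3 KO (as TPM, by quantile and without the length trend) and *Lpl* in WT relative to myeloid genes (without the length trend) were called with the new sign. They were, with a pseudocount of 1, *Cst7* in WT minus sh*Pax6* (-0.046) and in JNK3 KO relative to myeloid genes (0.25, and 0.19 with 0.5). As TPM, *Lpl* (-0.43) and *Gpnmb* (-0.18) in WT and *Spp1* in WT minus JNK3 KO (-0.57), which was also -0.063 by 75th percentile, -0.44 by quantile and -0.67 without the length trend. By quantile, *Itgax* in WT (0.33) and in sh*Pax6* PBS (0.001), *Lpl* in WT minus sh*Pax6* (0.32) and in WT relative to myeloid genes (0.028), *Clec7a* in WT minus JNK3 KO (0.24) and *Cst7* in JNK3 KO relative to myeloid genes (0.21). Without the length trend, *Itgax* in WT (0.68, relative 0.69), *Lpl* in WT minus sh*Pax6* (0.48) and in WT relative to myeloid genes (0.86), *Trem2* in WT minus sh*Pax6* (-0.031) and in sh*Pax6* relative to myeloid genes (-0.016), *Cd68* in JNK3 KO PBS (-0.062) and *Cst7* in JNK3 KO relative to myeloid genes (0.038). With each library left out, *Itgax* in WT ranged from -0.17 to 0.10, *Spp1* in WT minus JNK3 KO from -0.056 to 0.11, *Clec7a* there from -0.41 to 0.21, and in JNK3 KO PBS *Cd68* from -0.018 to 0.15, *Gpnmb* from -0.59 to 0.20 and *Clec7a* from -0.16 to 0.05. Relative to myeloid genes, *Gpnmb* in WT ranged from -0.23 to 0.36, *Trem2* in sh*Pax6* from -0.17 to 0.26 and *Cst7* in JNK3 KO from -0.43 to 0.36.

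The number of members called moved from 8 to 4 in JNK3 KO and from 8 to 3 in sh*Pax6* PBS with the spread of the groups compared alone, from 8 to 5 in sh*Pax6* PBS and from 0 to 1 in JNK3 KO PBS by an unadjusted p with a fold above 2, and from 8 to 4 in WT minus JNK3 KO without the length trend. Without 1 library it ranged from 5 to 8 in JNK3 KO and from 5 to 8 in sh*Pax6* PBS. With a replicate block 6 members were called in WT, 8 in sh*Pax6*, 8 in JNK3 KO, 7 in WT minus sh*Pax6*, 7 in WT minus JNK3 KO, 7 in sh*Pax6* minus JNK3 KO, 7 in sh*Pax6* PBS and 0 in JNK3 KO PBS. The share of all genes called under each of these settings is not given here, so these counts do not set the members apart.

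Scaling also moved the share of higher genes among all called. It was 43.5% in WT (21.4% to 51.9% over 4 scalings), 63.4% in sh*Pax6* (44.0% to 57.4%), 41.5% in JNK3 KO (39.8% to 50.3%), 36.8% in WT minus sh*Pax6* (16.3% to 53.5%), 45.7% in WT minus JNK3 KO (23.2% to 53.8%), 68.2% in sh*Pax6* minus JNK3 KO (43.2% to 59.4%), 32.4% in sh*Pax6* PBS (27.7% to 46.7%), 73.1% in JNK3 KO PBS (32.1% to 65.0%) and 30% in WT relative to myeloid genes (21.6% to 52.7%). With 2 libraries a group and no counts, small changes of the low genes *Cst7* and *Itgax* are not resolved.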
